A study of Mus musculus with 7 samples.

Results

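Complement is a set of secreted proteins, receptors and inhibitors of innate immunity, and 9 of its genes were followed here in microglia of the mouse dorsal hippocampus. The genes were listed by name, with earlier results of these data known, and all 9 were found among the 55401 identifiers of the count table. They are C1qa, C1qb and C1qc, which encode the chains of C1q, the components C3 and C4b, the protease gene Cfb, the inhibitor gene Serping1, and the receptor genes C3ar1 and C5ar1. Another 48 complement genes were listed beside them as the rest of the pathway.

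C57BL/6 mice of 6 to 8 weeks, described as adult males, were injected in the dorsal dentate gyrus with AAV-RAM-Cre and a second virus whose cargo depends on Cre. In the EYFP group (4 libraries, genotype labelled control) the cargo was AAV-Dio-EYFP, a fluorescent protein. In the ATG7 group (3 libraries, labelled ATG7 overexpression) it was AAV-Dio-Atg7-Flag, a tagged form of a gene needed for autophagy. RAM is a synthetic promoter switched on in recently active neurons, so both groups carried virus and Cre, and the cells sequenced were not the cells targeted. The comparison addresses how microglia differ when engram neurons overexpress Atg7. Microglia were enriched with CD11b beads from dissociated tissue, and whether each library is 1 mouse or a pool is not given in the sources used here. P-values therefore measure the spread between these libraries.

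In the classical pathway C1q binds a target and its proteases cleave C4 and C2, which leads to cleavage of C3. In the alternative pathway factor B, the product of Cfb, joins C3 to form a convertase that deposits more C3. Fragments of C3 mark targets for the integrin receptors of phagocytes, and the small fragments C3a and C5a signal through C3ar1 and C5ar1. C1 inhibitor, the product of Serping1, blocks the C1 proteases. Microglia are the main source of C1q in the brain, and C1q and C3 are known for tagging synapses that microglia remove.

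Total counts ran from 35934210 to 55217119 per library. Of the 10 microglia markers listed, 10 were detected and tested. Markers of other cells were present too, and Ttr of the choroid plexus was higher than any microglia marker, at a mean of 37174 CPM (read counts scaled to library size). The library labelled EYFP 3 went against the description of the mice as male, with 938.5 CPM of Xist against at most 0.574 CPM in the other 6 libraries and with 27.6 CPM of the Y-linked gene Ddx3y against at least 121.1 CPM. The Y-linked genes were lower in EYFP 3 but not absent, with Eif2s3y at 13.3, Kdm5d at 8.09 and Uty at 7.38 CPM. This library thus held both Xist and Y-linked transcripts, and the reason was not tested. The results for C3, C4b, Cfb, the C1q chains, C5ar1, Itgax and the interferon list are also given without EYFP 3. Atg7 itself was at 35.6 ± 1.68 CPM in EYFP (n = 4) against 34.9 ± 2.76 in ATG7 (n = 3, both SD), and in microglia this does not check the neuronal transgene.

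C3 and C1qb are shown as examples of a gene that passed and one that did not, since C3 changed most among those called and C1qb is among the most abundant. The 250 bases before their RefSeq start sites (build GRCm38.p6, minus strand, printed 5′ to 3′) are chr17:57228137-57228386 for C3 and chr4:136886201-136886450 for C1qb. Capitals mark a match to the C/EBP motif TTGCNNAA.

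C3: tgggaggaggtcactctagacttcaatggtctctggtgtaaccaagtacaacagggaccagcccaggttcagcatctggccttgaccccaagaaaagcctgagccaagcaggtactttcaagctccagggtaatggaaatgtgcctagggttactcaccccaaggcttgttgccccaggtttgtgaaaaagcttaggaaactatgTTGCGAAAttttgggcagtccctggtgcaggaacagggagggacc

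C1qb: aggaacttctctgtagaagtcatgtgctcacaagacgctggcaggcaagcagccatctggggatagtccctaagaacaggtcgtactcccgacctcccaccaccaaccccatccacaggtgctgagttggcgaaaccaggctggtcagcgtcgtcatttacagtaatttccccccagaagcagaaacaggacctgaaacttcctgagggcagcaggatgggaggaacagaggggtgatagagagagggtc

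The C3 window held 1 match to the C/EBP motif, TTGCGAAA, from 45 to 38 bases before the start, and 9.56% of 32851 RefSeq windows of the same length held one. Neither window matched the interferon motif ISRE (GAAA, any 2 bases, GAAA, in 2.98% of windows), the STAT motif GAS (TTCNNNGAA, 7.02%), the PU.1 motif GAGGAAGT (2.44%) or the NF-kB motif (3.90%). Both strands were searched. Windows were found for 5 of the 9 genes. The window of C1qc, a chain that also did not pass the test, held 1 match to the PU.1 motif and 1 to the NF-kB motif, and those of C3ar1 and C5ar1 matched none of the 5 motifs.

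C3 and C4b rose in ATG7, and they were the 2 of the 9 genes that passed the test (a two-sided quasi-likelihood test in edgeR, with p adjusted by Benjamini-Hochberg over all genes and a threshold of 0.05). Over all 19199 genes tested 0.755% passed in either direction, 0.688% as higher and 0.0677% as lower. The 7 others did not pass. At an unadjusted p under 0.05 stood 4 of the 9 genes, C3, C4b, Cfb and C3ar1, against 12% of all genes tested. Cfb entered the test through its ATG7 libraries, where it is high, and among the other 8 genes the count was 3. Of the genes that did not pass, Cfb had a large difference on very few counts, and the C1q chains, the receptors and Serping1 differed by between 0.07 and 0.22 on the log2 scale. All 9 log2 fold changes were above 0, with a median of 0.22, while 49.2% of all genes tested lay above 0 and their median was -0.00365. Leaving aside Cfb, 8 of 8 were above 0, with a median of 0.20. In bulk libraries of this kind, fewer cells of a type and less RNA per cell cannot be told apart.

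**Figure D1:**
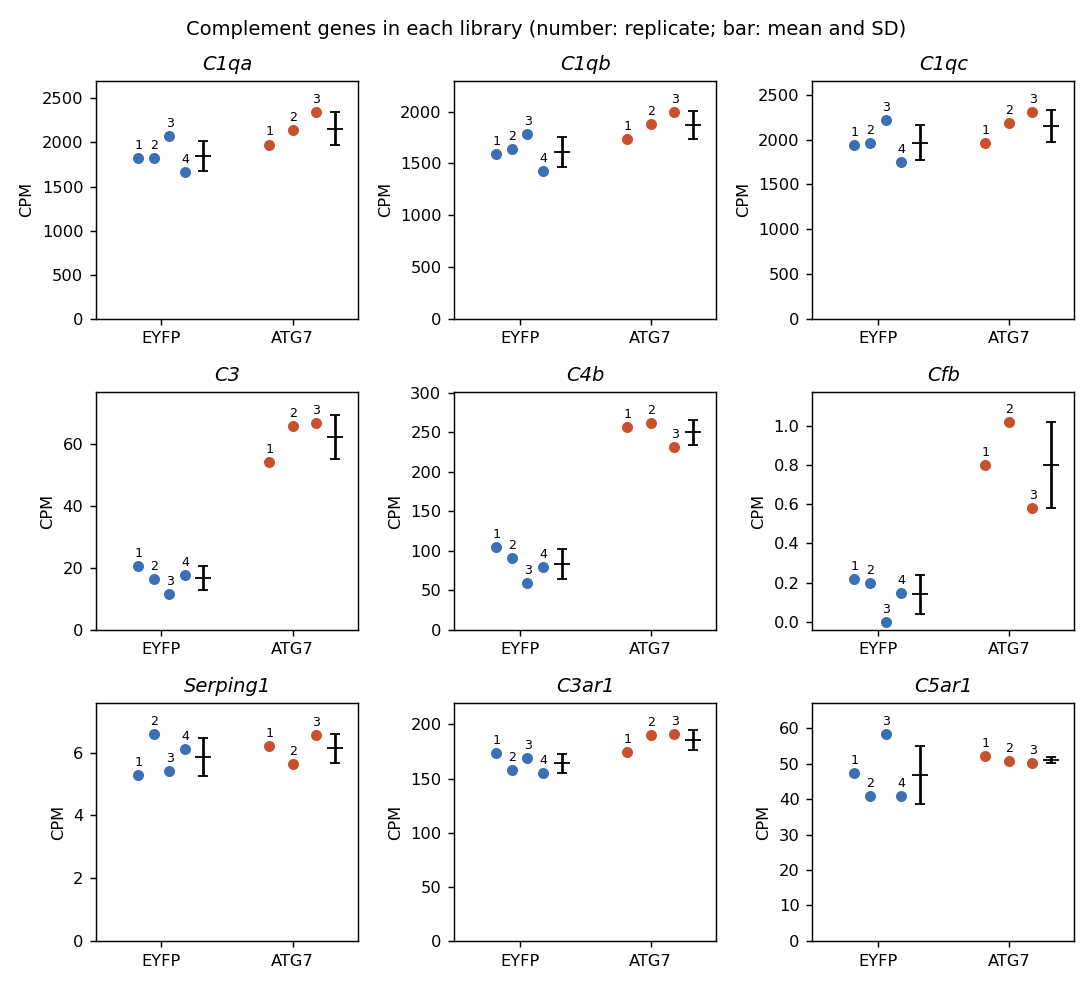
Level of each of the 9 complement genes in CPM (vertical axes, one scale per gene) in the 4 EYFP and 3 ATG7 libraries, with replicate numbers beside the points and the mean and SD as bars. C3, C4b, Cfb and C3ar1 have every ATG7 library above every EYFP library, and the other 5 genes overlap.

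C3 encodes the component on which all complement pathways converge (ENSMUSG00000024164, chromosome 17, 57203970 to 57228136, GRCm38). EYFP 1 to 4 had 20.7, 16.5, 11.5 and 17.7 CPM, and ATG7 1 to 3 had 54.1, 65.8 and 66.7 CPM. The lowest ATG7 library thus lay far above the highest EYFP library, and EYFP 3 was the lowest of all. The counts behind these values were 519 to 759 in EYFP and 2167 to 3616 in ATG7. The difference was 3.76-fold, with a 95% interval of 2.90 to 4.87, or 1.91 ± 0.168 (SE) on the log2 scale (edgeR adjusted p = 0.00251).

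C4b encodes C4, the substrate of the C1 proteases (ENSMUSG00000073418, chromosome 17, 34728380 to 34743882). Its EYFP libraries had 104.4, 90.4, 59.4 and 79.1 CPM in replicate order, and its ATG7 libraries 256.6, 261.5 and 231.6 CPM. The groups were again far apart, with EYFP 3 lowest and EYFP 1 the highest of the controls, as for C3. C4b was 3.00-fold higher in ATG7, with an interval of 2.35 to 3.83, or 1.59 ± 0.157 (SE) in log2 (edgeR adjusted p = 0.00432). The spread within ATG7 was narrow, with a coefficient of variation of 6.41% against 22.8% in EYFP, and for C3 the same values were 11.3% and 23.1%.

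Both calls held when any single library was left out. Without EYFP 3 the log2 fold change was 1.76 for C3 (edgeR adjusted p = 0.000361) and 1.45 for C4b (edgeR adjusted p = 0.000571). With the choroid plexus marker score as a covariate the log2 fold changes were 1.83 and 1.60, and neither passed (edgeR adjusted p = 0.161 and 0.201).

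C4b has a similar copy, C4a (chromosome 17, 34809092 to 34823464), 80.7 kb further along from lower end to lower end. Of the stretches of 100 bases in the longest C4b transcript, 16.5% occur unchanged in a C4a transcript. C4a was at 1.18 ± 0.303 CPM in EYFP (n = 4) against 1.13 ± 0.156 in ATG7 (n = 3, both SD), far below C4b in each library. Its log2 fold change was -0.06 with an interval of -0.65 to 0.53 (edgeR adjusted p = 0.961). How reads shared by such copies were counted is not given in the sources used here, so the level of C4a is uncertain.

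Cfb encodes factor B, the protease of the alternative pathway convertase (ENSMUSG00000090231, chromosome 17, 34856374 to 34862518). It had 8, 9, 0 and 6 counts in EYFP 1 to 4 and 32, 56 and 27 counts in ATG7 1 to 3. In CPM these were 0.219, 0.196, 0 and 0.147 against 0.799, 1.02 and 0.581, so the groups did not overlap although the EYFP values were close to the floor. The floor of 3 counts is 0.0546 to 0.0820 CPM. The log2 fold change was 2.51 ± 0.592 (SE), an interval of 1.21 to 3.82, and it did not pass (edgeR adjusted p = 0.0968). Without EYFP 3, which had no count, it was 2.08 and passed (edgeR adjusted p = 0.0461). With all libraries but no filter on low counts it also passed, in edgeR (adjusted p = 0.0205) and in DESeq2 (adjusted p = 0.00519). Cfb cleared the filter on low counts through its ATG7 libraries, with 1 of 4 EYFP libraries at the level required.

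The level of Cfb is uncertain for a reason other than depth. In the GENCODE M21 annotation 79.5% of its exon bases are also exons of Gm20547, a protein-coding model that spans Cfb and its neighbour C2, and Gm20547 was listed at 0 in every library. For C2 the shared part is 42.8%. Whether reads over these shared exons were set aside was not tested.

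**Figure D2:**
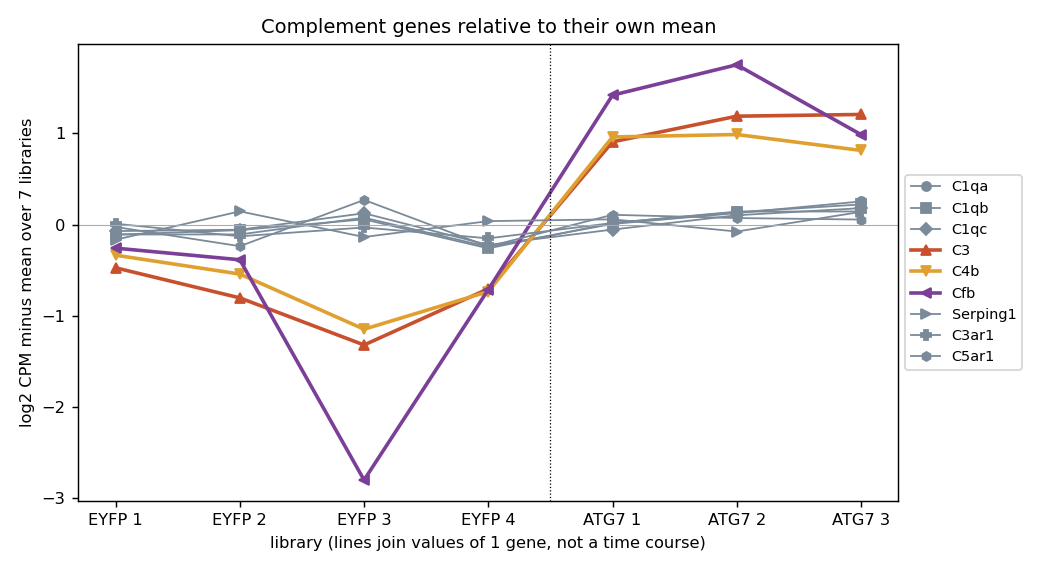
Log2 CPM of each of the 9 genes minus its own mean over the 7 libraries (vertical axis), by library (horizontal axis), computed with a prior count of 2 so that the library with no Cfb count has a value. C3, C4b and Cfb are lowest in EYFP 3 and highest in the 3 ATG7 libraries, while the other 6 genes stay within 0.271 of their means.

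C1q is built from the products of 3 neighbouring genes within 18.7 kb of chromosome 4, C1qb (136880129 to 136886187), C1qc (136889804 to 136893065) and C1qa (136895917 to 136898803). C1qa had 1825, 1826, 2074 and 1661 CPM in EYFP 1 to 4, and 1977, 2147 and 2346 CPM in ATG7 1 to 3. EYFP 3 lay above ATG7 1, so the groups overlapped. The fold was 1.17 with an interval of 0.997 to 1.37 (edgeR adjusted p = 0.428). C1qb, at 1609 ± 145.8 CPM in EYFP (n = 4) against 1870 ± 131.2 in ATG7 (n = 3, both SD), gave 1.16-fold with an interval of 0.998 to 1.35 (edgeR adjusted p = 0.427). For C1qc, at 1965 ± 195.2 CPM in EYFP (n = 4) against 2151 ± 176.2 in ATG7 (n = 3, both SD), the fold was 1.09 with an interval of 0.932 to 1.29 (edgeR adjusted p = 0.696). None of the chains passed in edgeR or DESeq2, and none had an unadjusted p under 0.05 in edgeR as fitted. In DESeq2, in limma-voom, and in edgeR without a filter, without EYFP 3 or without ATG7 1, 2 of the 3 chains had one. Over all genes, in the same order, the counts were 2468 of 33007, 2422 of 19199, 2917 of 33007, 2301 of 18825 and 2178 of 19711. In the other fits no chain had one. With the choroid plexus covariate the log2 fold changes were 0.12 for C1qa, 0.14 for C1qb and 0.02 for C1qc. Without ATG7 3 they were 0.15, 0.16 and 0.07. In edgeR as fitted, the intervals allow a rise of up to 1.37-fold. In contrast to C3 and C4b, the chains were not low in EYFP 3, where all 3 had their highest EYFP value. Without EYFP 3 the groups no longer overlapped for any chain, but the library left out held the highest EYFP value of each. For C1qc the margin was small, with 1958 CPM in EYFP 2 and 1960 CPM in ATG7 1. The share of all genes whose groups separate in this split was not counted. Without EYFP 3 the log2 fold changes were 0.28 for C1qa, 0.26 for C1qb and 0.19 for C1qc. None of these passed (edgeR adjusted p = 0.302, 0.327 and 0.519).

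The 3 chains kept nearly constant shares from library to library. Per length, C1qa made up 41.6% ± 0.367 of the C1q level in EYFP (n = 4) against 42.3% ± 0.398 for ATG7 (n = 3, both SD). C1qb made up 34.6% ± 0.443 (n = 4) against 35.0% ± 0.320 for ATG7 (n = 3, both SD). C1qc made up 23.8% ± 0.165 (n = 4) against 22.7% ± 0.246 for ATG7 (n = 3, both SD), and its lowest EYFP library, at 23.7%, lay above its highest ATG7 library, at 23.0%. The groups also did not overlap for C1qa, by a margin under the SD of either group, and they overlapped for C1qb. The order of the chains depends on the division by length. Not divided by length, C1qc was the largest, at 36.2% in EYFP and 34.8% in ATG7, and its groups did not overlap on that scale either. These shares are descriptions with no test. Together the 3 genes took 0.490% to 0.649% of all counts in a library.

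**Figure D3:**
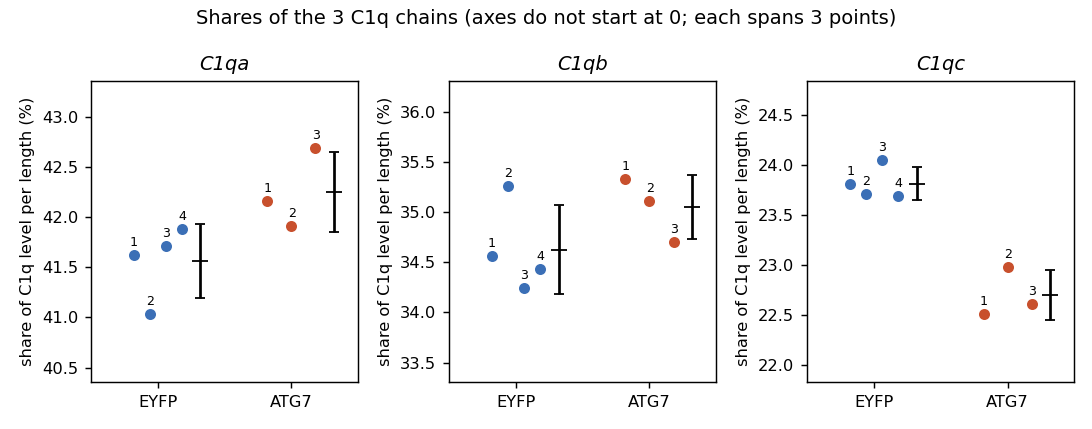
Share of each C1q chain in the summed level of the 3 chains, each divided by exon length (percent, vertical axes that do not start at 0), by group, with replicate numbers, means and SD. The share of C1qc lies between 23.7% and 24.0% in EYFP and between 22.5% and 23.0% in ATG7, and on counts not divided by length C1qc would be the largest chain.

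C3ar1, the receptor for C3a (ENSMUSG00000040552, chromosome 6, 122847138 to 122856161), had 173.8, 158.0, 168.9 and 155.5 CPM in EYFP 1 to 4 and 174.8, 190.6 and 190.9 CPM in ATG7 1 to 3. The groups did not overlap, but EYFP 1 and ATG7 1 were nearly equal. The log2 fold change was 0.18 ± 0.0742 (SE) and did not pass (edgeR adjusted p = 0.373). C5ar1, the receptor for C5a (ENSMUSG00000049130, chromosome 7, 16246743 to 16259540), was at 46.9 ± 8.20 CPM in EYFP (n = 4) against 51.0 ± 0.949 in ATG7 (n = 3, both SD). EYFP 3 had the highest level of C5ar1, at 58.3 CPM, and the interval of its fold ran from 0.914 to 1.29 (edgeR adjusted p = 0.747). Without that library the groups of C5ar1 did not overlap, a split for which the share over all genes was not counted. The log2 fold change of C5ar1 was then 0.24 in place of 0.12 (edgeR adjusted p = 0.273). It was 0.06 without EYFP 2, 0.06 without EYFP 4 and -0.031 with the choroid plexus covariate.

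Serping1 (ENSMUSG00000023224, chromosome 2, 84765387 to 84775444) was low in every library, between 5.30 and 6.58 CPM. Its group means were 5.85 ± 0.607 CPM in EYFP (n = 4) against 6.13 ± 0.462 in ATG7 (n = 3, both SD). The log2 fold change was 0.07 with an interval of -0.24 to 0.37 (edgeR adjusted p = 0.901). Groups that do not overlap were found for 4 of the 9 genes, C3, C4b, Cfb and C3ar1, against 11.2% of all genes tested in either direction, 6.33% with ATG7 higher and 4.91% with ATG7 lower. Leaving aside Cfb, which entered the test through ATG7, they were 3 of 8.

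Divided by summed exon length, the levels of the 9 genes spanned a wide range. In EYFP the order was C1qa (1775 CPM per kb), C1qb (1479), C1qc (1018), C3ar1 (38.1), C5ar1 (18.3), C4b (14.6), C3 (3.23), Serping1 (2.52) and Cfb (0.0497). In that group C1qa and C1qb overlapped, as did C5ar1 and C4b, and C3 and Serping1. The other neighbours in the order did not overlap. The place of C1qc depends on the length used: with the longest transcript its mean over the 7 libraries was 1700 CPM per kb, above C1qb at 1582. In ATG7 the order changed in that C4b moved above both receptors. It stood at 43.9 ± 2.81 CPM per kb (SD, n = 3) and overlapped with C3ar1 at 43.1 ± 2.14 CPM per kb (SD, n = 3). C3 there was at 12.1 ± 1.36 CPM per kb (SD, n = 3), apart from Serping1 at 2.64. Against the mean level of the C1q chains, C3 stood at 0.231% ± 0.0656 in EYFP (n = 4) against 0.739% ± 0.0395 for ATG7 (n = 3, both SD), so that C1q stayed far more abundant in both.

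Of the 48 other complement genes, 33 had enough counts to be tested, and 5 of the remaining 15 had no count in any library. Only Itgax passed (edgeR), 1 of 33 genes or 3.03%, against 0.755% of all genes. Of the 33, 17 (51.5%) had a log2 fold change above 0, against 49.2% of all genes tested, with a median of 0.03. At an unadjusted p under 0.05 in edgeR stood 7 of the 33, with 5 higher and 2 lower, against 12% of all genes tested. DESeq2, run without the filter on low counts, also called Itgax alone. Groups did not overlap for 6 of the 33 genes (18.2%), against 11.2% of all genes tested. C1ra, C2, Cfp, C8g and Itgax, 5 genes, were the higher ones in ATG7 (6.33% of all genes). Clu was the 1 lower gene (4.91% of all genes). Of the 33 genes 7 had fewer than 3 libraries of a group at the level the filter requires, and 3 of these, C9, Cr2 and Csmd2, entered the test through EYFP, where they are higher.

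**Figure D4:**
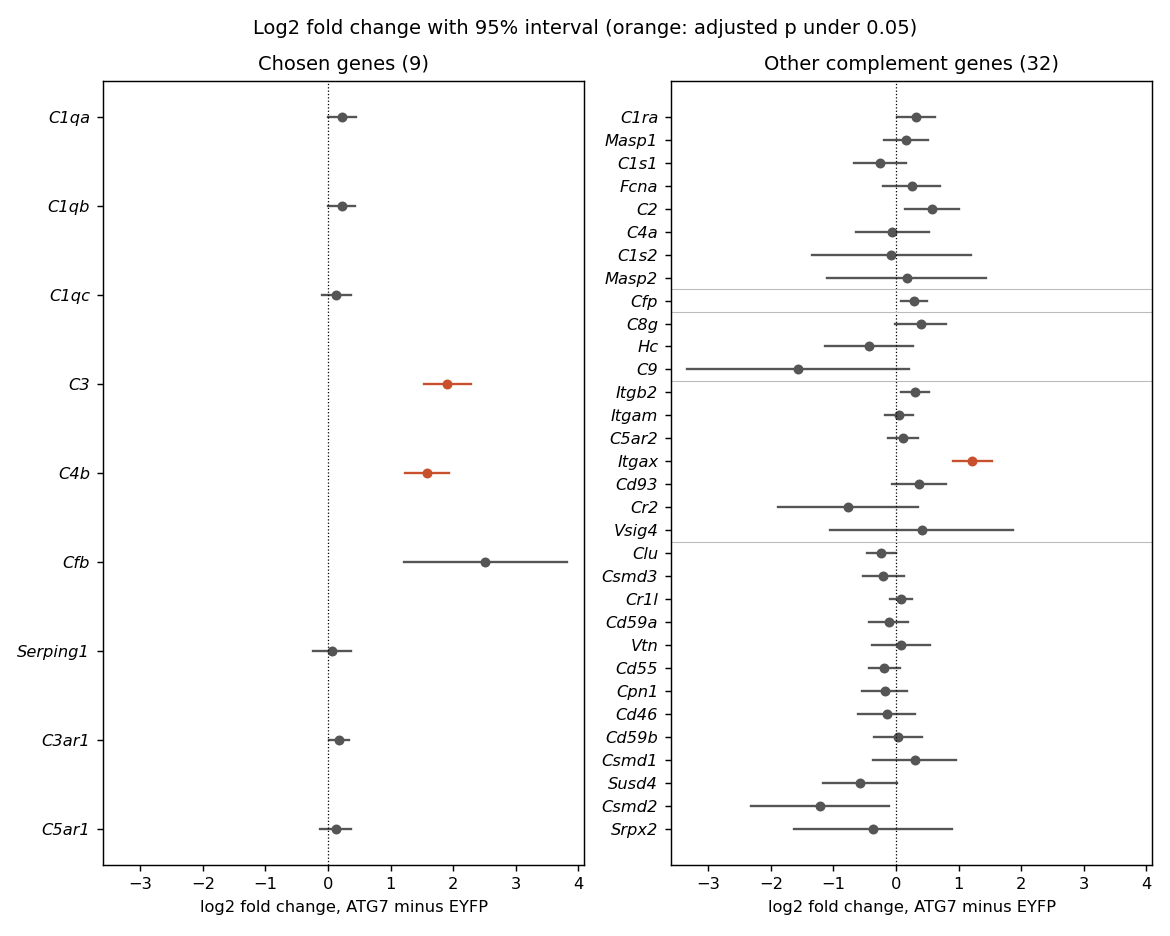
Log2 fold change of ATG7 minus EYFP with its 95% interval (horizontal axes) for the 9 genes and for 32 of the 33 other complement genes tested, grouped by role (initiation, alternative pathway, terminal, receptors, regulators). C3, C4b and Itgax, in orange, are the genes with an adjusted p under 0.05.

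Among the receptors, Itgax encodes the alpha chain of complement receptor CR4, which binds a C3 fragment. It had 39.7, 33.0, 26.4 and 37.6 CPM in EYFP 1 to 4 and 71.5, 93.4 and 73.4 CPM in ATG7 1 to 3, with EYFP 3 again the lowest. The log2 fold change was 1.22 ± 0.140 (SE), and the edgeR adjusted p was 0.00705. Without EYFP 3 it was 1.11 (edgeR adjusted p = 0.00292). Itgax passed with any single library left out, but not with the choroid plexus covariate. Itgam, the alpha chain of the related receptor CR3, was at 278.4 ± 17.8 CPM in EYFP (n = 4) against 286.6 ± 39.3 in ATG7 (n = 3, both SD), a log2 fold change of 0.04 with an interval of -0.18 to 0.26 (edgeR adjusted p = 0.919). Itgb2, the beta chain shared by both receptors, gave 0.30 ± 0.103 (SE) and did not pass (edgeR adjusted p = 0.262). Exons of Itgam are shared with the model Gm49368 over 68.7% of their bases, which makes the level of Itgam uncertain.

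In the classical and lectin initiation group, which includes C2 and C4a, none of the 8 genes tested passed in edgeR or DESeq2. At an unadjusted p under 0.05 in edgeR, as for 12% of all genes tested, stood 2 of the 8. These were C2, the protease that joins C4 in the C3 convertase, with a log2 fold change of 0.58 ± 0.196 (SE) (edgeR adjusted p = 0.263), and C1ra, a C1 protease, with 0.32 ± 0.138 (SE) (edgeR adjusted p = 0.395). C1ra had the highest mean of these 8 genes, at 7.46 CPM. In the alternative pathway Cfp, which encodes properdin, a stabiliser of its convertase, had 0.29 ± 0.0944 (SE) without passing (edgeR adjusted p = 0.236).

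The 14 regulators tested had a median log2 fold change of -0.17. None passed in edgeR or DESeq2. At an unadjusted p under 0.05 in edgeR stood 2 of the 14, against 12% of all genes tested. The 2 were Clu and Csmd2, both with lower values in ATG7. Csmd2 was tested through its EYFP libraries, where it is higher, since 1 of the 3 ATG7 libraries was at the level the filter requires, and it stood at 0.384 CPM in EYFP and 0.163 CPM in ATG7. The most abundant was Clu, or clusterin, an inhibitor of the terminal complex, at 1398 ± 159.4 CPM in EYFP (n = 4) against 1189 ± 62.5 in ATG7 (n = 3, both SD). Clu was highest in EYFP 2 and lowest in ATG7 2, as was the summed level of the choroid plexus markers. The part of choroid plexus cells in the level of Clu was not tested. The ATG7 libraries of Clu all lay below its EYFP libraries, as in 4.91% of all genes tested. Its log2 fold change of -0.23 ± 0.104 (SE) did not pass (edgeR adjusted p = 0.406). Of the 7 terminal components, whose products form the membrane attack complex, 3 could be tested and none passed in edgeR or DESeq2 or had an unadjusted p under 0.05 in edgeR. C8g was the most abundant of these, at a mean of 3.65 CPM.

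C4b, C4a, Cfb and C2 lie in 1 cluster on chromosome 17, in the major histocompatibility region. Within 100 kb of this cluster 23 genes were tested, and C4b was the only one called (edgeR). The 21 genes there other than C4b and Cfb ranged from -0.91 to 0.58 in log2 fold change, with a median of 0.09 and C2 at the top. Of the 4 genes between C4a and Cfb, which are Stk19, Dxo, Skiv2l and Nelfe, Skiv2l had the highest log2 fold change, at 0.13.

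**Figure D5:**
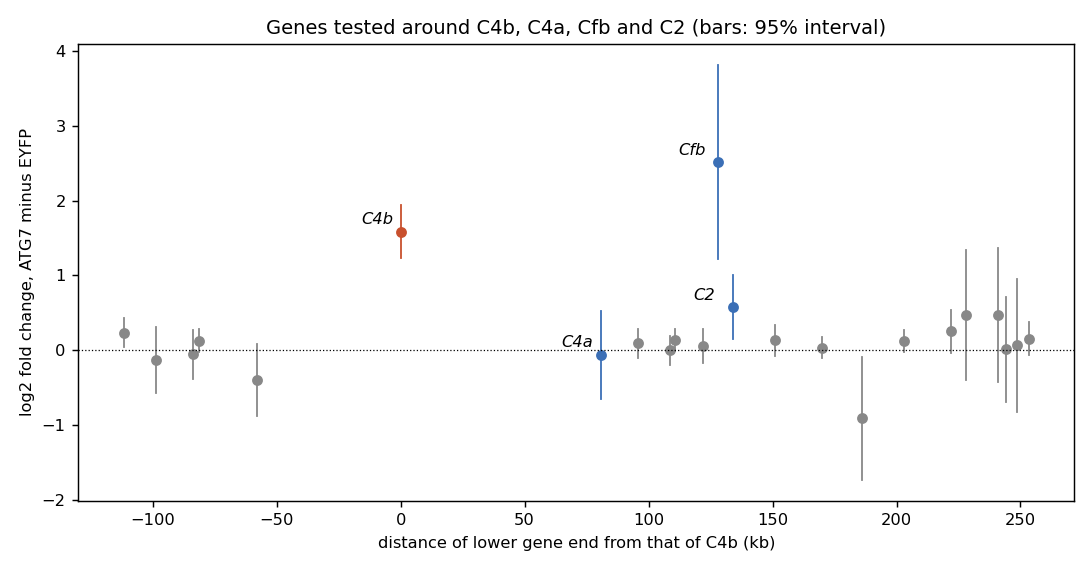
Log2 fold change with its 95% interval (vertical axis) of the 23 genes tested around the complement cluster of chromosome 17, by distance from C4b in kb (horizontal axis). C4b (orange) is the only gene called, and C4a, Cfb and C2 are in blue. Cfb, which was not called and entered the test through its ATG7 libraries, has the highest value, with a wide interval of 1.21 to 3.82.

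Marker lists of the cell types such a preparation can hold were measured beside C3 and C4b. The 10 choroid plexus markers all had log2 fold changes below 0 (median -0.26), with summed levels of 55487 to 73150 CPM in EYFP and 47007 to 61846 CPM in ATG7. The 8 astrocyte markers, led by Slc1a3, summed to 418.4 to 797.1 CPM and 469.7 to 567.6 CPM. Fibroblast and mural markers, led by Rgs5, summed to 202.6 to 331.1 CPM and 236.6 to 305.8 CPM, and border macrophage markers, led by Mrc1, to 543.2 to 658.1 CPM and 580.0 to 656.1 CPM. Monocyte and neutrophil markers, led by S100a9, summed to 65.0 to 111.2 CPM in EYFP and 48.1 to 177.7 CPM in ATG7. Microglia markers summed to 17738 to 21635 CPM and 17162 to 21375 CPM. The groups overlapped in all these sums, as they did for the endothelial, ependymal, oligodendrocyte and neuronal lists, and no marker had 0 counts throughout. Of the 82 markers 81 could be tested in edgeR, and 0 passed. At an unadjusted p under 0.05 in edgeR stood 11, with 3 higher and 8 lower in ATG7, against 12% of all genes tested. The 8 lower ones included 3 choroid plexus and 2 astrocyte markers. DESeq2 called 3 of the 82 markers, against 572 of 33007 over all genes. Of these 3 markers, Plac8 was higher and Slc7a10 and Slc4a5 were lower in ATG7. The part of these cells in the levels of C3 and C4b was not tested.

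The interferon response list, written with earlier results of these data known, holds 14 genes. All 14 had log2 fold changes above 0, with a median of 1.39, and 6 passed as higher (edgeR), against 0.688% of all genes tested. That count rested on single libraries, and so did the count over all genes, which was 145 with every library and 28 to 277 with 1 left out. In the list 13 genes passed without EYFP 3, 8 without EYFP 1, 6 without ATG7 1 and 2 without EYFP 2. Without EYFP 4, ATG7 2 or ATG7 3 the number was 1. All 14 had an unadjusted p under 0.05 in each of these fits. Their summed level was 510.4, 422.7, 272.9 and 371.9 CPM in EYFP 1 to 4 and 734.3, 979.6 and 983.6 CPM in ATG7 1 to 3. EYFP 3 was lowest and EYFP 1 highest among the controls, as for C3 and C4b. The part of this response in the complement genes was not tested.

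The genes whose centred log2 profiles over the 7 libraries were nearest to that of C3 were Gbp6, at a root mean square distance of 0.140, Gm6904 at 0.182 and Cst7 at 0.204. For C4b they were Nlrc5 at 0.144, Gbp6 at 0.159 and Met at 0.160. The median distance over all genes was 1.01 for C3 and 0.854 for C4b, and C3 and C4b were 0.213 apart. Gbp6, a guanylate-binding protein gene, went from 2.42 ± 0.614 CPM in EYFP (n = 4) to 7.66 ± 0.894 in ATG7 (n = 3, both SD). Cst7, which encodes cystatin F, went from 14.1 ± 4.08 CPM in EYFP (n = 4) to 50.3 ± 4.93 in ATG7 (n = 3, both SD). Nlrc5, the transactivator of class I histocompatibility genes, went from 23.9 ± 7.53 CPM in EYFP (n = 4) to 67.3 ± 4.29 in ATG7 (n = 3, both SD). Since nearness was measured on the same libraries as the group difference, these names are descriptions.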

How the data were processed

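The deposited values are raw read counts for 55401 Ensembl identifiers in 7 libraries, and all columns were matched to libraries by name. Per the submitters' processing notes, fastp 0.20.1, HISAT2 2.0.5 and featureCounts were used with mm10 (GRCm38). The annotation release, strand setting and treatment of shared reads are not given in the sources used here. Symbols, coordinates and exon lengths came from GENCODE M21 (GRCm38), which matched 55141 identifiers. All 37 mitochondrial genes were listed at 0.

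ATG7 was compared with EYFP by the edgeR 4.0.16 quasi-likelihood test in R 4.3.3 on all 7 libraries, without covariates, with TMM factors, filterByExpr and robust dispersions, and Benjamini-Hochberg adjustment over 19199 genes. CPM was scaled by TMM. SE was taken as |log2 fold change| over the root of the F statistic, and 95% intervals used the test's degrees of freedom. Floors of 3 counts cover counting error only. The fit was tested on simulated data. Replicates differed by more than sampling noise (chi-square per degree of freedom of 19.2 to 41.3).

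The members and gene lists were chosen with earlier results of these data known. By rule the text names the members, Atg7, C4a, passing pathway genes, the most abundant gene of each role and marker list, and the nearest profiles. Other genes were named after their values were seen. Some genes that this rule covers are not reported here. Alternatives were other scalings, filters, DESeq2 1.42.0 (run without the filter), limma-voom (limma 3.58.1), a replicate block, a choroid plexus covariate, a threshold of 0.1 and leaving out each library.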

Additional observations from a re-analysis of the deposited data

Results flagged for a closer look

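Dixon's test was applied to 59 values over the EYFP libraries and marked 2, where chance (1 in 20) gives 2.95. Susd4, which encodes a complement inhibitor of the cell membrane, was at 1.33 CPM in EYFP 3 against 2.24 to 2.35 CPM in the other EYFP libraries. The summed level of the neuron markers was 52.5 CPM in EYFP 1 against 25.6 to 27.2 CPM in the others.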

How the results depend on the processing

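Of 143 recomputed log2 fold changes of the 9 genes, 135 kept direction and call, 3 gained a call (all Cfb), 4 lost it and 1 reversed (C5ar1, -0.031 with the choroid plexus covariate). With the replicate block, in which EYFP 4 stands alone and adds nothing, C3 was at 1.97 and C4b at 1.60 (edgeR adjusted p = 0.0764 and 0.0709), and 0 of the 9 genes, 0 of the 33 pathway genes and 0 of all genes passed (edgeR, with 3, 3 and 1256 at an unadjusted p under 0.05). Deviations of libraries of the same number had correlations across genes of -0.0609, -0.182 and 0.0664. Between libraries of different numbers the correlations ran from -0.145 to 0.215. Such few values cannot settle whether the numbers pair mice. No label says that they do, so the fit without the block is the one reported. With the covariate C3 was at 1.83 and C4b at 1.60, and 0, 0 and 5 genes passed (edgeR, with 3, 4 and 1625 at an unadjusted p under 0.05). In both fits the cause of the lost calls was not tested. All genes called numbered 297 of 33007 with no filter (234 higher, 63 lower). With DESeq2, also run without a filter, they numbered 572 of 33007 (404 and 168). At a threshold of 0.1 the count was 275 of 19199 (230 and 45), against 145 of 19199 as reported (132 and 13). In each of these 3 settings 3 of the 9 genes passed, with Cfb added. Leaving out each library gave 2 to 3 of the 9 genes, 1 pathway gene throughout and 28 to 277 of all genes. The count was 277 without EYFP 1, 94 without EYFP 2, 164 without EYFP 3, 30 without EYFP 4, 148 without ATG7 1, 28 without ATG7 2 and 30 without ATG7 3. Over these 7 fits C3 ranged from 1.76 to 2.03 and C4b from 1.45 to 1.71. With the longest transcript as length, the mean level was 1700 CPM per kb for C1qc in place of 1059, which put it above C1qb at 1582, and 3.38 for Serping1 in place of 2.57. Not divided by length, C1qa, C1qb and C1qc made up 34.4%, 29.9% and 35.6% of the C1q counts. With 3 and 4 libraries, intervals of the members that did not pass still allow differences, and depth limits Cfb and the 15 untested pathway genes.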

Other observations

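Around C3 on chromosome 17, 7 genes were tested within 100 kb and C3 was the only one called (edgeR). The other 6 had a median log2 fold change of 0.25. The highest was Tnfsf14, a cytokine gene beside C3, at 0.85 with an interval of -0.41 to 2.10, from 0.270 CPM in EYFP and 0.491 CPM in ATG7 (edgeR adjusted p = 0.622). Around the C1q cluster on chromosome 4, 5 genes were tested, and none was called (edgeR, 0 at an unadjusted p under 0.05; DESeq2 called no C1q chain and put 2 of the 3 at an unadjusted p under 0.05). The other 2 were Zbtb40 at 0.21 (edgeR adjusted p = 0.472) and Ephb2 at -0.51 (edgeR adjusted p = 0.735), the latter from 0.361 CPM in EYFP and 0.253 CPM in ATG7.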
